A study of Mus musculus with 12 samples.

Results

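Mediator is the large protein complex that carries signals from DNA-bound transcription factors to RNA polymerase II. The transcripts of its subunits were followed here in mouse hearts and cardiomyocytes that had lost one subunit, Med30. The 33 genes were taken from a list of subunits by symbol and not by any measured value, and all 33 were found among the 20775 genes of both expression tables. They comprised 7 genes of the head, 9 of the middle, the scaffold gene Med14, 5 of the distal tail, 4 of the proximal tail (Med30 among them) and 7 of the kinase module.

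In the core of Mediator, the head and middle contact the polymerase, the tail receives most activators, and MED14 runs through the complex as its backbone. The kinase module, built from a cyclin C-dependent kinase with MED12 and MED13, binds the core reversibly and blocks its contact with the polymerase. In vertebrates the kinase, MED12 and MED13 each have a paralog, CDK19, MED12L and MED13L. Mediator is used by essentially all cells, and human mutations in several subunits are associated with congenital heart defects.

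The question was whether loss of Med30 was accompanied by changes in the transcripts of the other subunits. RNA was sequenced from whole hearts of C57BL/6 embryos at E10.5, with 3 cKO samples (Med30 f/f; Tnnt-Cre, in which cardiac troponin T-Cre deletes the first exon of Med30 in developing cardiomyocytes) and 3 Ctrl samples (Cre-negative Med30 f/f littermates, named wild type in the labels). It was also sequenced from cardiomyocytes of adult C57BL/6 mice, labelled 3 months of age, 4 weeks after tamoxifen, with 3 icKO samples (Med30 f/f; αMHC-MerCreMer, a tamoxifen-inducible Cre of cardiomyocytes) and 3 Ctrl samples (Cre-negative Med30 f/f mice, also given tamoxifen and named wild type). All groups thus carried the floxed alleles, the knockout groups also carried a Cre, and an effect of Cre itself cannot be told apart from the loss of Med30. The Cre drivers act in cardiomyocytes, so other cells of the embryonic heart kept the gene. The labels do not say whether the samples of a group came from separate animals or pools, and p-values measure the spread between these samples.

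Values are RPKM, reads on a gene divided by its length in kilobases and by the size of the library, scaled between the samples of a stage by the median ratio over genes. The 20 most abundant genes took 24.2% to 24.8% of the summed RPKM in adult Ctrl samples and 10.7% to 12.2% in icKO samples, and without scaling the middle of all tested genes lay at a log2 fold change of 0.57 at 4 weeks and of −0.13 at E10.5. After scaling it was 0.01 and −0.01. Judged by how low values fall on whole reads, the libraries held about 13.7 to 20 M reads at E10.5 and 11.97 to 17.5 M at 4 weeks. Y-linked genes were near 0 in Ctrl replicate 2 at E10.5 (summed over 4 genes, 0.0773, against 30.3 to 35.2 in the other 5 E10.5 samples). The 2 calls other than Med30 at E10.5 are therefore also given without it.

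The adult groups also differed in cell markers. The summed scaled RPKM of 10 cardiomyocyte markers was 24560 to 26144 in Ctrl and 6387 to 7938 in icKO samples, with 7 of the 10 lower and 1 higher. That of 8 fibroblast markers was 6.12 to 10.3 in Ctrl and 49.0 to 70.4 in icKO samples, with 4 of 5 tested higher. Macrophage markers (7 genes) summed to 2.504 to 3.64 and 4.67 to 5.57, with 1 of 2 tested higher and the rest not above a mean RPKM of 1. Among all genes at 4 weeks, 34.6% were called lower and 33.6% higher. At E10.5, 10 cardiomyocyte markers summed to 5508 to 6252 in Ctrl and 4525 to 5297 in cKO samples. The 6 mural cell markers summed to 350 to 392 and 467 to 554. None was called in either list (3 of 10 and 3 of 4 tested had an unadjusted limma p under 0.05). Acta2 alone made up 337 to 381 of the mural sums in Ctrl samples and 450 to 537 in cKO samples. Of the 4 mural markers tested, 1 (Rgs5) had a log2 fold change below 0 (−0.13). Endothelial and endocardial markers (8 genes) summed to 144 to 173 and 174 to 198, with 1 called higher (2.49% of all genes at E10.5). The 6 erythroid markers summed to 248 to 701 and 365 to 2220, with none called (1 of 6 at an unadjusted limma p under 0.05). No marker list had a gene at 0 in all samples of a stage. The part of these differences in the results below was not tested, and in such samples fewer cells of a type and less RNA per cell cannot be told apart.

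Med30, the targeted gene (chr15:52712408-52730564, plus strand, GRCm38), checked the labels at both stages. Its scaled RPKM at E10.5 was 9.39, 13.5 and 11.03 in Ctrl samples and 1.47, 2.16 and 0.9998 in cKO samples. At 4 weeks it was 9.32, 9.01 and 9.38 in Ctrl samples and 3.07, 2.56 and 1.55 in icKO samples. Every knockout sample lay below every Ctrl sample. At E10.5 Med30 fell by 2.84 in log2 units (SE 0.253, limma adjusted p = 0.00123), where the cKO mean was 86.4% lower, and by 1.96 at 4 weeks (SE 0.214, limma adjusted p = 5.94e-05), where the icKO mean was 74.1% lower. The values in the knockouts rested on an estimated 13.9 to 35.9 reads at E10.5 and 22 to 64.8 reads at 4 weeks. RPKM cover the whole gene, so reads from exons outside the deletion count as well. The change at 4 weeks minus that at E10.5 was 0.89 on the log2 scale (SE 0.369, limma adjusted p = 0.0585) and did not pass the threshold.

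**Figure D1:**
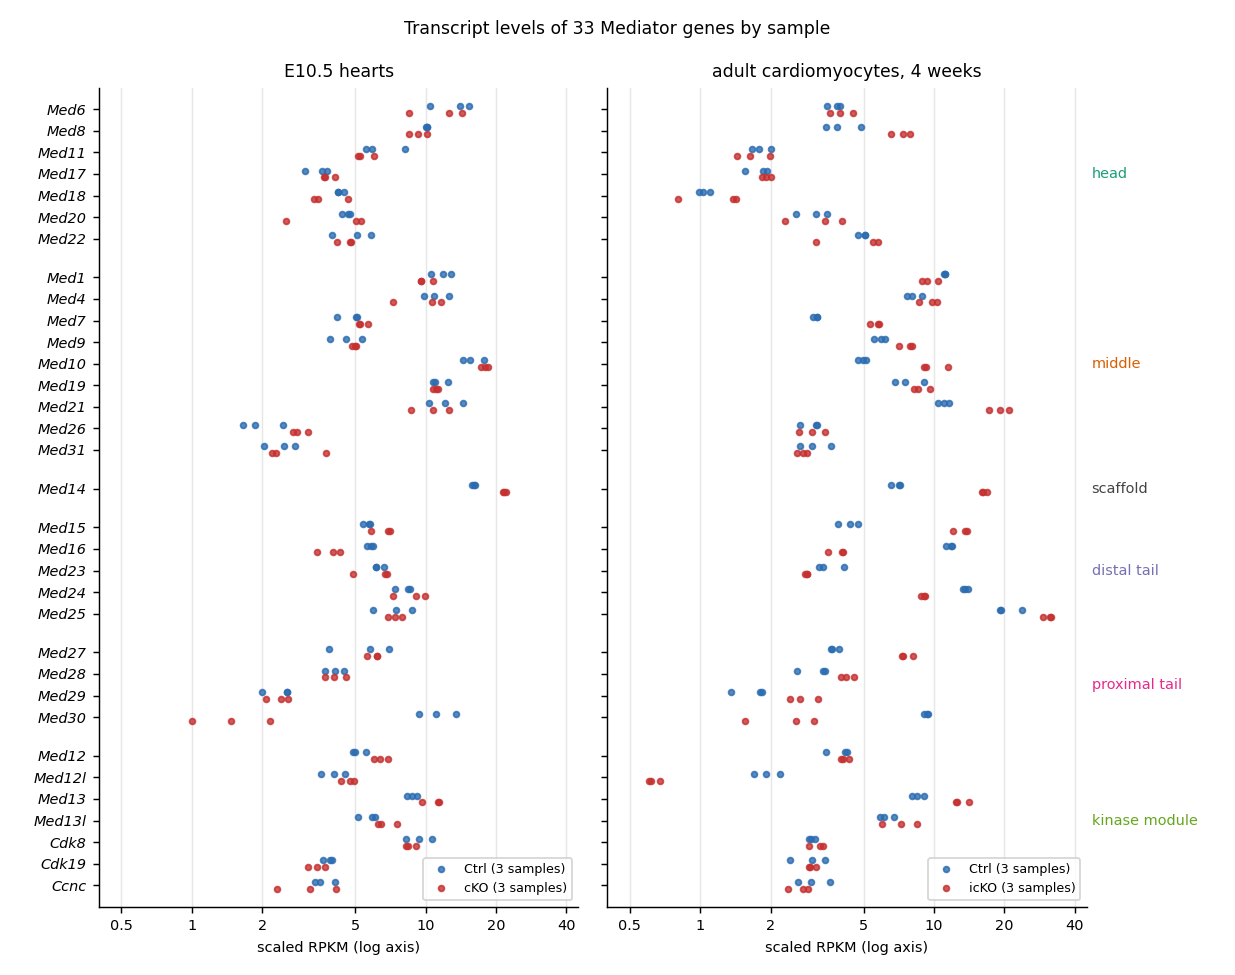
Scaled RPKM of the 33 Mediator genes (log axis) in each sample, for E10.5 hearts on the left and adult cardiomyocytes on the right. Blue points are the 3 Ctrl samples and red points the 3 knockout samples, with genes ordered by module. Red points lie wholly to the left of blue for 2 genes at E10.5 (14.2% of all genes) and 6 at 4 weeks (36.9%). They lie wholly to the right for 7 (15.2%) and 12 (36.4%). Among these, wide gaps to the left are seen for Med30 at both stages and for Med16 and Med12l at 4 weeks. Wide gaps to the right are seen at 4 weeks for Med14, Med15 and Med27.

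Ctrl samples showed how unequal the subunit transcripts were without any deletion. At E10.5 the highest Ctrl means of scaled RPKM were those of Med14 (16.01 ± 0.264, SD, n = 3), Med10 (15.9 ± 1.72) and Med6 (13.3 ± 2.55), and the lowest those of Med31 (2.42 ± 0.368), Med29 (2.36 ± 0.326) and Med26 (1.99 ± 0.414). The highest was 8.04 times the lowest, and the samples of 30 of the 32 neighbouring pairs in this order overlapped. In adult cardiomyocytes the order was led by 3 subunits of the distal tail, Med25 (20.8 ± 2.62), Med24 (13.6 ± 0.309) and Med16 (11.7 ± 0.386), each separate from the next. The lowest adult means were those of Med17 (1.78 ± 0.204), Med29 (1.67 ± 0.266) and Med18 (1.04 ± 0.0595). The span was 20.03 times there, and 25 of 32 neighbouring pairs overlapped. Across the 33 genes the Ctrl means of the stages had a Spearman rho of 0.676, given as a description, since the stages were tabulated separately and genes are not independent.

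At E10.5 the loss of Med30 was accompanied by few and small differences in the other subunit transcripts. At a limma adjusted p under 0.05, 2 of 33 were lower (Med30 and Med16, against 2.56% of the 10885 genes tested) and 1 was higher (Med14, against 2.49%), while 30 were not called, 3 of them (Med26, Med12 and Med13) with an unadjusted p under 0.05. Beyond a log2 fold change of 1, Med30 was the single member called (0.377% of all genes were called lower and 0.322% higher). The median log2 fold change of the 33 was 0.00, that of all genes −0.01, and 18 of 33 values were below 0 (51.4% of all genes). Without Med30, whose fall was set by the deletion, 1 of the 32 others was lower and 1 higher. The 32 ranged from −0.56 to 0.53.

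Med16 encodes a distal tail subunit through which activators reach the complex. Its scaled RPKM at E10.5 was 5.62, 5.94 and 5.84 in Ctrl samples and 4.03, 4.31 and 3.42 in cKO samples, a log2 fold change of −0.56 (SE 0.129, limma adjusted p = 0.0435). The groups did not overlap. The call was lost in each of the 6 fits that left out 1 sample, with log2 fold changes of −0.63 to −0.47 and limma adjusted p of 0.0541 to 0.136; without Ctrl replicate 2 the adjusted p was 0.118.

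Med14, the scaffold gene on the X chromosome, had 15.7, 16.1 and 16.2 scaled RPKM in Ctrl samples and 22.1, 21.5 and 21.5 in cKO samples. Its log2 fold change was 0.44 (SE 0.0779, limma adjusted p = 0.0204), and the 3 cKO samples lay close together above the 3 Ctrl samples. With RPKM as deposited it was 0.31 (limma adjusted p = 0.106). The call held in 1 of the 6 fits without 1 sample, that without cKO replicate 3; without Ctrl replicate 2 the log2 fold change was 0.44 and the limma adjusted p 0.0636.

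Besides Med30, Med16 and Med14 were the subunit genes called at both stages, in opposite directions, and their sequences upstream of the RefSeq start site (GRCm38.p6) are shown so that the promoters can be compared. Each is printed 5′ to 3′ on the minus strand, without bases inside annotated exons. Capitals mark matches, on either strand, to the letters bound by Sp factors (GGGCGG), by Ets factors (CCGGAAG), by NF-Y (CCAAT) or by E-box factors (CACGTG).
Med14, chrX:12762074-12762223: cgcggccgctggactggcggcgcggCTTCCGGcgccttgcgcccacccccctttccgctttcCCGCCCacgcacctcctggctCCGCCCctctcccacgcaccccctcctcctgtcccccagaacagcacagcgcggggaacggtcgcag
Med16, chr10:79908939-79909188: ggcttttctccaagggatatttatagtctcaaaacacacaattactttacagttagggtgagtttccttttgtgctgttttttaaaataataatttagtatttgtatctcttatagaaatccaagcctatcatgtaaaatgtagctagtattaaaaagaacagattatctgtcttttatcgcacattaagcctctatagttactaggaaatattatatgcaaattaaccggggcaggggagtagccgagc
The 150 bases of Med14 held 3 matches, none overlapping another, and the 250 bases of Med16 held none. In the 250 bases upstream, GGGCGG was found for 19 of 28 Mediator genes in the promoter table (67.9%) and in 32.7% of all 32851 promoters, CCGGAAG for 6 (21.4%) and in 6.91%, CCAAT for 11 (39.3%) and in 33.8%, and CACGTG for 2 (7.14%) and in 6.02%. A Mediator gene with several start sites was counted once if any held the letters, while each promoter counts in the share of all. All promoters were counted whether or not their genes were expressed in these samples, while every Mediator gene passed the RPKM filter at both stages. A match describes the letters and not binding, and any link to the changes was not tested.

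By module, the 7 head genes had log2 fold changes of −0.24 to 0.14 at E10.5, with 6 of 7 below 0 and none past an adjusted or unadjusted limma p of 0.05. The 9 middle genes ranged from −0.24 to 0.53, with none called. The top of that range was Med26, a subunit that recruits elongation factors, with 1.66, 2.46 and 1.86 in Ctrl and 2.71, 3.15 and 2.80 in cKO samples (limma adjusted p = 0.142). In the kinase module, Med12, Med13 and Med13l were higher in each cKO than in each Ctrl sample, with log2 fold changes of 0.32, 0.29 and 0.24 and limma adjusted p of 0.142, 0.132 and 0.291. Counting Med7, Med14, Med15 and Med26 as well, 7 of 33 genes had cKO samples all above Ctrl samples (15.2% of all genes) and 2 had them all below (14.2%). Without Med30, 1 of the 32 others had them all below. A p above the threshold does not show that a transcript was unaffected.

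At 4 weeks some subunit transcripts were higher and some lower. Of the 33, 5 were lower (Med30, Med16, Med24, Med12l and Med1, against 34.6% of the 9517 genes tested) and 12 were higher (against 33.6%), with 16 not called at a limma adjusted p under 0.05. The 12 were Med8 of the head, Med7, Med9, Med10 and Med21 of the middle, Med15 and Med25 of the distal tail, Med27, Med28 and Med29 of the proximal tail, Med13 of the kinase module, and the scaffold gene Med14. Beyond a log2 fold change of 1, 3 were lower (Med30, Med16 and Med12l, 15.9% of all genes) and 2 higher (Med14 and Med15, 11.1%). Without Med30, 4 of the 32 others were lower and 12 higher, and 2 were lower beyond 1. The median of the 33 was 0.11 and that of all genes 0.01, with 10 of 33 below 0 (49.4% of all genes). The lower and upper quartiles were −0.11 and 0.61 for the 33 and −0.61 and 0.53 for all genes. With RPKM as deposited, which moves the median of all genes to 0.57, the counts were 3 lower and 25 higher (18.1% and 60.6% of all genes), with the same 12 among the 25.

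**Figure D2:**
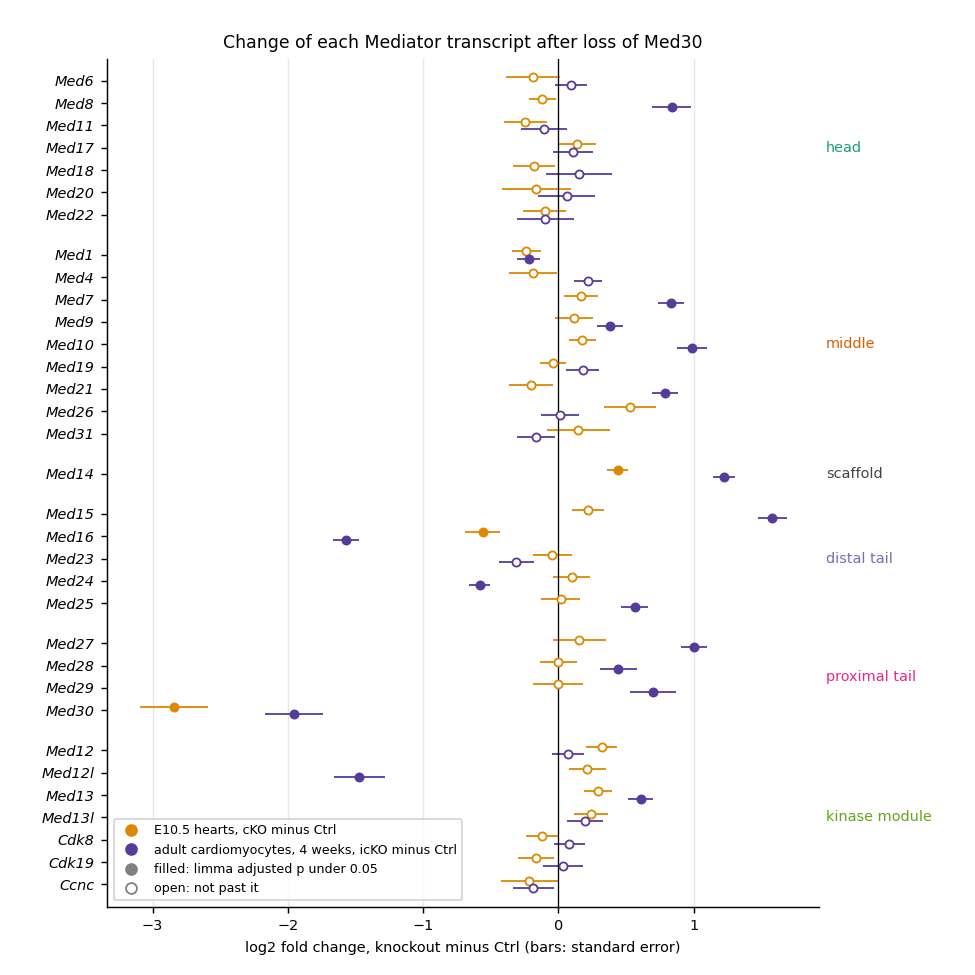
Log2 fold change of each Mediator gene, knockout minus Ctrl, on the horizontal axis, with bars of 1 standard error. Orange points are E10.5 hearts, purple points adult cardiomyocytes, and filled points passed a limma adjusted p of 0.05. At E10.5 the filled points are Med30, Med16 and Med14, and at 4 weeks 17 points are filled, 5 to the left of 0 and 12 to the right.

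Distal tail genes went in opposite directions at 4 weeks. Med16 had 11.3, 11.97 and 11.9 scaled RPKM in Ctrl samples and 3.52, 4.07 and 4.04 in icKO samples and fell by 1.57 on the log2 scale (SE 0.0959, limma adjusted p = 2.52e-06). Med15, a target of several activators, had 4.39, 4.74 and 3.88 in Ctrl samples and 13.8, 13.5 and 12.1 in icKO samples and rose by 1.58 (SE 0.106, limma adjusted p = 4.09e-06). The 2 genes thus exchanged places: Med16 was the higher in every Ctrl sample and Med15 in every icKO sample.

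Med25, whose product binds activators through a domain of its own, had 19.4, 23.9 and 19.2 in Ctrl samples and 31.7, 31.2 and 29.3 in icKO samples, a log2 fold change of 0.56 (SE 0.0987, limma adjusted p = 0.000973). It was the most abundant subunit transcript in both adult groups. Med24, another distal tail gene, had 13.5, 13.9 and 13.3 in Ctrl samples and 8.82, 9.10 and 9.17 in icKO samples, a log2 fold change of −0.58 (SE 0.0758, limma adjusted p = 0.000165), but −0.02 with RPKM as deposited (limma adjusted p = 0.808). Med23, whose product is reached by signal-dependent activators, had 3.22, 3.35 and 4.12 in Ctrl samples and 2.80, 2.85 and 2.86 in icKO samples. Its groups did not overlap, and its log2 fold change of −0.31 was not called (limma adjusted p = 0.0576). In all, 6 of the 33 genes had icKO samples all below Ctrl samples (36.9% of all genes) and 12 had them all above (36.4%). Without Med30, 5 of the 32 others had them all below.

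The scaffold gene Med14 had 7.17, 6.53 and 7.09 scaled RPKM in adult Ctrl samples and 16.1, 15.96 and 16.8 in icKO samples. It rose by 1.22 on the log2 scale (SE 0.0812, limma adjusted p = 3.86e-06), with groups far apart, and stayed called in every fit that left out 1 sample. As a share of the summed RPKM of all 33 genes, which does not depend on scaling, Med14 took 3.45% to 3.89% in Ctrl and 6.94% to 7.69% in icKO samples. At E10.5 its share was 6.70% to 6.83% in Ctrl and 8.81% to 9.92% in cKO samples.

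The 3 proximal tail partners of Med30 have products that sit beside it between head and tail. All 3 were called higher at 4 weeks, where 33.6% of all genes were. Med27 had 3.66, 3.94 and 3.62 in Ctrl samples and 7.28, 7.36 and 8.10 in icKO samples, with a log2 fold change of 0.999 (SE 0.0968, limma adjusted p = 2.95e-05). Med29 had 1.36, 1.81 and 1.83 in Ctrl samples and 3.19, 2.66 and 2.43 in icKO samples, with a log2 fold change of 0.70 (SE 0.172, limma adjusted p = 0.00622). Med28 had 3.35, 2.59 and 3.43 in Ctrl samples and 4.56, 3.99 and 4.22 in icKO samples, with a log2 fold change of 0.44 (SE 0.136, limma adjusted p = 0.0182). No Ctrl sample reached an icKO sample for any of the 3. Among all genes, 36.4% had icKO samples all above Ctrl samples. The Med28 call was lost without Ctrl replicate 2 (limma adjusted p = 0.0666) and without icKO replicate 1 (0.0568). Med30 aside, their log2 fold changes at E10.5 were 0.15, −0.00 and −0.00 for Med27, Med28 and Med29, none of them called.

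In the middle module, which holds the hinge of the complex, 4 of 9 genes were called higher at 4 weeks, where 33.6% of all genes were. Unscaled, all 9 were, against 60.6% of all genes. Med21, which pairs with Med7 in the hinge, had 11.01, 10.4 and 11.6 in Ctrl samples and 19.1, 17.2 and 20.9 in icKO samples (log2 fold change 0.79, SE 0.0949, limma adjusted p = 0.000106). Med7 had 3.15, 3.15 and 3.04 in Ctrl samples and 5.74, 5.81 and 5.31 in icKO samples (0.83, SE 0.0985, limma adjusted p = 9.50e-05). Both hinge genes were thus higher in every icKO sample. Med10, a conserved core subunit of the middle, had 4.71, 5.11 and 4.95 in Ctrl samples and 9.02, 11.4 and 9.26 in icKO samples (0.99, SE 0.112, limma adjusted p = 7.42e-05). Med9, its neighbour in the middle, had 5.90, 5.52 and 6.15 in Ctrl samples and 7.92, 8.02 and 7.06 in icKO samples (0.38, SE 0.0963, limma adjusted p = 0.00717). For Med10, 92.8% of the annotated exonic bases also lie in a long noncoding RNA on the opposite strand, Gm26819. For Med7 21.2% lie in another, 2310031A07Rik. Exonic bases are those of all annotated transcripts, while the longest RefSeq transcript of Med10 has 913 bases. The share among the bases counted is not known. Whether reads were counted by strand is not stated, so reads of the overlapping genes cannot be told apart.

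Med1, the subunit bound by nuclear receptors, was the one middle gene called lower. It had 11.1, 11.03 and 11.2 in Ctrl samples and 8.92, 9.32 and 10.4 in icKO samples, with a log2 fold change of −0.22 (SE 0.0869, limma adjusted p = 0.0497). Its direction depended on scaling. With RPKM as deposited the log2 fold change was 0.34 (limma adjusted p = 0.00485), and the call held in 1 of 6 fits without 1 sample. The other 4 middle genes, Med4, Med19, Med26 and Med31, ranged from −0.16 to 0.22 and were not called.

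In the head, which contacts the polymerase, 1 of 7 genes was called at 4 weeks, against 33.6% of all genes called higher and 34.6% lower. This was Med8, which anchors Med18 and Med20 in the head, with 4.88, 3.46 and 3.83 in Ctrl samples and 7.89, 7.36 and 6.55 in icKO samples (log2 fold change 0.84, SE 0.142, limma adjusted p = 0.000826). The other 6, among them Med17, the central subunit of the head, ranged from −0.11 to 0.15. Without scaling, 5 of the 7 were called higher, against 60.6% of all genes. The head held 10.6% to 11.4% of the summed RPKM of the 33 genes in Ctrl samples and 9.21% to 11.5% in icKO samples, ranges that overlap.

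In the kinase module, 1 of 7 genes was called lower (Med12l) and 1 higher (Med13) at 4 weeks, against 34.6% and 33.6% of all genes. Med12l had 1.70, 1.91 and 2.19 in Ctrl samples and 0.613, 0.671 and 0.604 in icKO samples and fell by 1.47 on the log2 scale (SE 0.188, limma adjusted p = 0.000149). Med12 had 4.14, 4.24 and 3.43 in Ctrl samples and 4.07, 3.99 and 4.31 in icKO samples, a log2 fold change of 0.07 (SE 0.117, limma adjusted p = 0.623). The groups of Med12l were well separated and those of Med12 overlapped. With RPKM as deposited Med12l was lower by −0.96 on the log2 scale (limma adjusted p = 0.00154). A stretch of 15.3% of its exonic bases lies in Igsf10 on the opposite strand.

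Med13, which links the kinase to the core, had 8.02, 8.42 and 9.10 in Ctrl samples and 14.1, 12.5 and 12.5 in icKO samples and rose by 0.61 (SE 0.0925, limma adjusted p = 0.000419). Med13l had 5.88, 6.08 and 6.76 in Ctrl samples and 8.41, 7.23 and 6.01 in icKO samples (0.20, SE 0.133, limma adjusted p = 0.219), with overlapping groups. The kinases Cdk8 and Cdk19 and their cyclin Ccnc had log2 fold changes of 0.08, 0.03 and −0.19, none called.

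Shares within a pair of paralogs do not depend on scaling. Med12l made up 33.02% ± 5.21 (SD, n = 3) of the RPKM of Med12 and Med12l in adult Ctrl samples and 13.3% ± 1.05 in icKO samples, and Med13l 42.3% ± 0.349 and 35.5% ± 2.598 of its pair. In both pairs no icKO sample reached a Ctrl sample, and the exact two-sided permutation test gave p = 0.1, the smallest that 3 against 3 samples allow. Cdk19 made up 49.4% ± 4.96 and 48.6% ± 1.57 of its pair (exact permutation p = 0.9). At E10.5 the shares in Ctrl and cKO samples were 43.9% ± 3.15 and 42.1% ± 1.50 for Med12l, 39.5% ± 1.29 and 38.6% ± 2.40 for Med13l, and 29.2% ± 2.71 and 28.6% ± 2.65 for Cdk19 (exact permutation p = 0.5, 0.6 and 0.8).

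**Figure D3:**
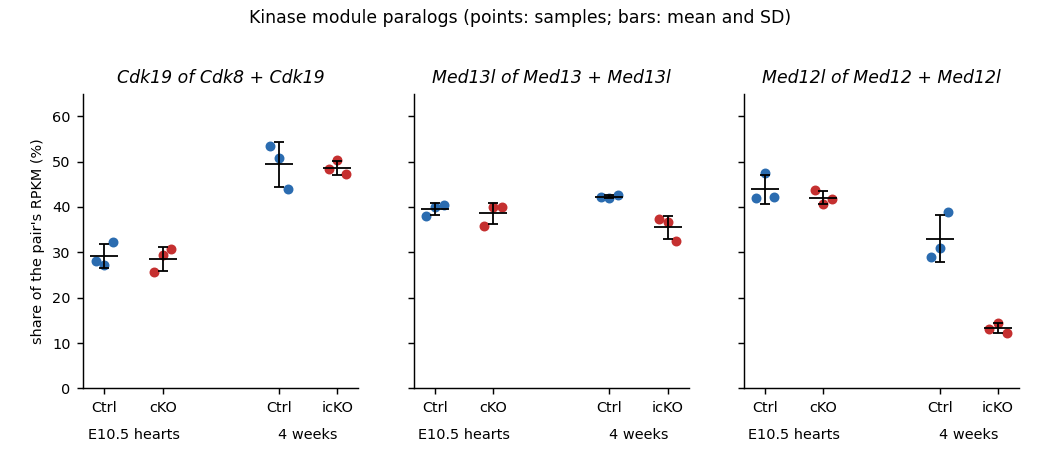
Share of each kinase module paralog in the summed RPKM of its pair, in percent, for Ctrl (blue) and knockout (red) samples of both stages; points are samples and bars are the mean with the SD of 3 samples. The Med12l share drops from between 29.1% and 38.9% in adult Ctrl samples to between 12.3% and 14.4% in icKO samples, while the Cdk19 shares overlap at both stages.

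The change at 4 weeks minus that at E10.5 was tested in 1 limma fit of all 12 samples over 8909 genes. It passed an adjusted p of 0.05 for 12 of 33 members, 9 with a higher value at 4 weeks (27.2% of all genes) and 3 with a lower one (25.7%). The 9 were Med7, Med8, Med10, Med14, Med15, Med21, Med25, Med27 and Med29, and the 3 were Med16, Med24 and Med12l. The largest of these differences were −1.69 for Med12l (SE 0.209, limma adjusted p = 2.63e-05), 1.36 for Med15 (SE 0.154, limma adjusted p = 1.26e-05) and −1.01 for Med16 (SE 0.151, limma adjusted p = 0.000117). As deposited, the difference for Med16 was −0.34 (limma adjusted p = 0.0558) and that for Med24 was 0.00. The stages also differ in tissue, Cre and time since deletion, which cannot be told apart from age.

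In sign, 7 members were below 0 at both stages, 12 above 0 at both, 11 below 0 at E10.5 and above it at 4 weeks, and 3 the reverse. Called at both stages in the same direction were Med30, the deleted gene, and Med16 (lower, 1.72% of all genes) and Med14 (higher, 1.62%). Over the 32 genes other than Med30, the log2 fold changes of the stages correlated with r = 0.381 (Pearson) and rho = 0.376 (Spearman), given as a description.

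**Figure D4:**
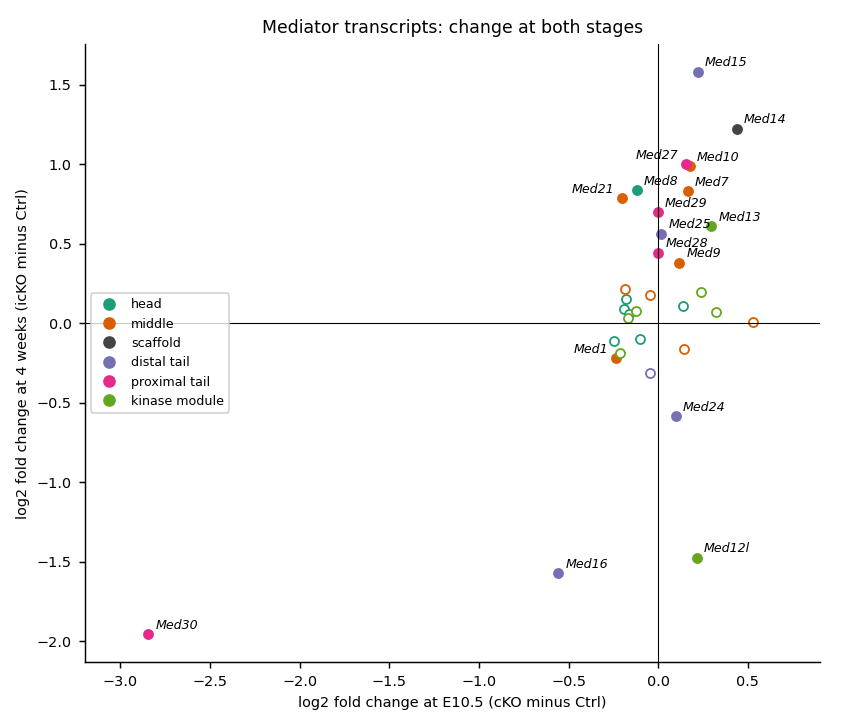
Log2 fold change of each of the 33 Mediator genes at E10.5 (horizontal axis) against that at 4 weeks (vertical axis), coloured by module, with filled points for genes called at either stage. Med30 and Med16 lie in the lower left and Med14 in the upper right, while Med12l lies at 0.21 on the horizontal and −1.47 on the vertical axis.

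The sum over all 33 genes was 234 to 239 scaled RPKM in E10.5 Ctrl samples and 217 to 244 in cKO samples, and 184 to 189 in adult Ctrl samples and 218 to 232 in icKO samples. The adult sums did not overlap. As deposited, the sums were 232 to 263 in Ctrl and 217 to 228 RPKM in cKO samples at E10.5, without overlap, and 151 to 157 in Ctrl and 256 to 288 in icKO samples at 4 weeks, so their size, and at E10.5 their order, depended on scaling. All these sums include Med30, with 10.555, 13.316 and 11.337 RPKM as deposited in E10.5 Ctrl samples and 1.376, 2.023 and 1.004 in cKO samples. The gap at E10.5 thus does not by itself show a fall of the other subunits, which was not tested. The kinase module took 15.6% to 16.04% of the adult Ctrl sums and 14.3% to 15.5% of the icKO sums, and the distal tail 28.0% to 30.5% and 26.1% to 26.4%.

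**Figure D5:**
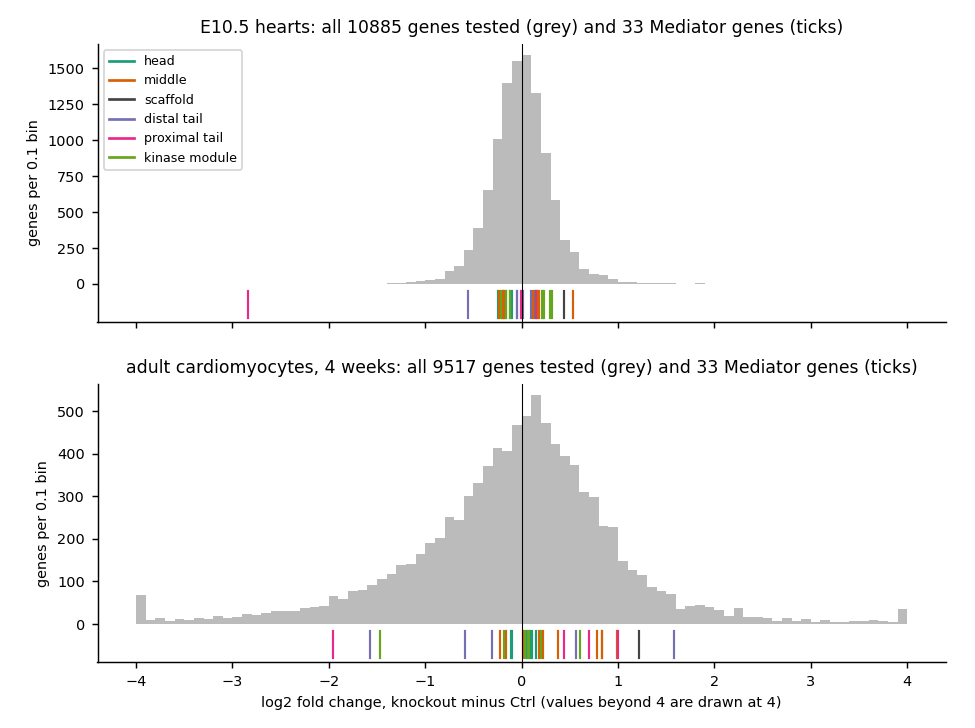
Number of genes per 0.1 bin of log2 fold change (knockout minus Ctrl) for all genes tested, in grey, with a tick below for each of the 33 Mediator genes, coloured by module; values beyond 4 are drawn at 4. At E10.5 the ticks other than Med30 lie between −0.56 and 0.53, and at 4 weeks they spread from −1.96 for Med30 to 1.58 for Med15.

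Other parts of the transcription machinery give the setting of these values. At E10.5, 1 of 13 RNA polymerase II subunit genes was lower (Polr2h) and 1 higher (Polr2a). None of 31 general transcription factor genes was called (1 had an unadjusted limma p under 0.05), and 1 of 16 elongation partners was lower (Mllt3). Among all genes, 2.56% were lower and 2.49% higher at E10.5. At 4 weeks, 3 of 12 polymerase genes tested were lower and 4 higher (median 0.16, range −0.95 to 3.75). The top of that range was Polr2a, with 10.3, 11.2 and 8.73 scaled RPKM in Ctrl and 148, 138 and 125 in icKO samples. Of the 31 general transcription factor genes 4 were lower and 17 higher (median 0.40), and of the 16 elongation partners, which govern the release of paused polymerase, 1 was lower and 14 were higher (median 0.92). The values at 4 weeks stand beside 34.6% lower and 33.6% higher among all genes and a median of 0.11 for Mediator. The genes named in this paragraph were chosen after their values were seen.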

How the data were processed

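RNA was sequenced from 12 samples, 3 per group. The submitters' processing notes name cutadapt 2.6, STAR 2.5.3a, HOMER 4.11.1 and DESeq2 1.12.4, and mapping was to GRCm38. For each stage the authors deposited RPKM per gene, counted over whole genes by symbol, with a column for each sample. The gene annotation and the strand setting of the count are not given in the sources used here. The tables also hold the authors' log2 fold changes and FDR values, which were not used. The knockout columns of both tables are named icKO and were assigned to the knockout of their own stage.

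RPKM were scaled within a stage by median ratios, since a few abundant genes took different shares of the groups. Genes whose mean RPKM exceeded 1 were fitted per stage on log2(scaled RPKM + 0.1) in limma 3.58.1 (R 4.3.3; lmFit and eBayes, with a trend), with Benjamini-Hochberg adjustment over all genes tested. Fold changes on this scale understate those of low genes. Counts were not recovered from RPKM, since 57.1% to 64.7% of low values lay within 0.1 of a whole read (15.7% to 18.5% at other depths), and library sizes are estimates. The difference between stages was a contrast over all samples. Paralog shares were compared by exact two-sided permutation tests. Fits were tested on simulated data.

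All 33 genes were accounted for, with full values for those called. The members, lists and tests were chosen with earlier results of these data known. Alternatives were RPKM as deposited, quantiles made equal, scaling that left out the 20 most abundant genes, pseudocounts of 1 and 0.01, no filter, a mean RPKM above 5, eBayes without trend, sample weights, the replicate number as a block, and each sample left out in turn. Positions are from GENCODE, and promoters from RefSeq (GRCm38.p6), which matched 28 of 33 genes (not Med8, Med23, Med24, Med30 and Cdk19). Summaries used scipy 1.17.1, numpy 2.4.6 and pandas 2.3.3 in Python 3.11.15. Protein measurements were not analysed here.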

Additional observations from a re-analysis of the deposited data

Results flagged for a closer look

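For 12 Mediator genes the effect of the knockout differed between the stages by a limma test of the difference itself (adjusted p under 0.05 over 8909 genes, of which 27.2% passed with a higher and 25.7% with a lower value at 4 weeks). Given as the change at 4 weeks minus that at E10.5 on the log2 scale, the difference was 1.36 for Med15, 0.99 for Med21, 0.96 for Med8, 0.84 for Med27, 0.81 for Med10, 0.79 for Med14, 0.70 for Med29, 0.67 for Med7 and 0.55 for Med25. It was −1.69 for Med12l, −1.01 for Med16 and −0.68 for Med24. The Med25 call was lost without E10.5 Ctrl replicate 3 and without adult Ctrl replicate 1 or 3, with limma adjusted p of 0.0568 to 0.0576. The Med29 call was lost without any 1 of 5 samples (E10.5 Ctrl replicates 2 and 3, E10.5 cKO replicate 1, adult Ctrl replicate 1 and icKO replicate 1), with limma adjusted p of 0.0604 to 0.0766. Groups of 3 samples are too small for a test of single outlying samples.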

How the results depend on the processing

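Scaling moved most values. With RPKM as deposited, the members called were 2 lower and 0 higher at E10.5, 3 lower and 25 higher at 4 weeks (10 of these beyond a log2 fold change of 1), and 1 lower and 27 higher for the difference between stages. Of all genes, 3.45% were then lower and 0.864% higher at E10.5. At 4 weeks 18.1% were lower and 60.6% higher (28.0% higher beyond 1). For the difference 9.29% were lower and 59.4% higher, and its median over all genes was 0.69. Scaling without the 20 most abundant genes gave 1 lower at E10.5, 19 higher at 4 weeks (8 beyond 1) and 16 higher for the difference, where 1.93% of all genes were lower at E10.5, 50.0% higher at 4 weeks (19.4% beyond 1) and 39.3% higher for the difference. Past the threshold in the opposite direction, or called before and changed in sign, were Med1 at 4 weeks (0.34 as deposited, 0.10 without the 20 most abundant genes), Med31 at 4 weeks (0.38 as deposited), and the difference between stages for Med12 (0.42), Med13l (0.64), Med17 (0.62) and Med24 (0.000739), all as deposited. The count of members lower at E10.5 was also 1 with no RPKM filter, a mean RPKM above 5 and eBayes without trend. Of all genes, 0.791%, 5.01% and 0.432% were lower in these fits. Without trend the count of higher members was 0 (0.707% of all genes), and with sample weights it was 2 (5.13%). With a mean RPKM above 5, 1 member was lower for the difference (25.4% of all genes). Leaving out 1 sample gave 1 member lower at E10.5 in each fit and 0 to 1 higher, and 2 to 4 higher beyond 1 at 4 weeks (4 without Ctrl replicate 2 or icKO replicate 1). In these E10.5 fits 0.239% to 3.53% of all genes were lower and 0.313% to 3.51% higher. In those at 4 weeks at most 11.9% of all genes were higher beyond 1. Med30 stayed called lower at both stages in every alternative, with log2 fold changes of −3.10 to −2.29 at E10.5 and −2.14 to −1.40 at 4 weeks. With the replicate block, 1 member was lower and 1 higher at E10.5, 4 lower and 12 higher at 4 weeks, and 3 lower and 10 higher for the difference. The samples share only a replicate number: deviations of same-numbered samples correlated at 0.0139, 0.101 and −0.0692 at E10.5 and at 0.152, 0.0416 and 0.0452 at 4 weeks. Values called in neither fit changed sign 28 times at E10.5, 17 times at 4 weeks and 31 times for the difference. The causes were not tested. Groups of 3 samples and RPKM without counts limit what small changes could show.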
